A study of Mus musculus with 16 samples.

Results

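The acute-phase protein genes of the mouse liver were examined as 10 genes, Saa1, Saa2, Saa3, Hp, Hpx, Orm1, Orm2, Orm3, Lcn2 and Apcs. They were taken by symbol from the 41079 genes of the deposited count table, and all 10 were among the 16742 genes that passed the filter on low counts. In the acute-phase response, cytokines released at a site of infection or injury reach the liver, and hepatocytes then secrete more of some plasma proteins and less of others. Interleukin-6 and its relatives act through STAT3, interleukin-1 and tumour necrosis factor act through NF-kB, and factors of the C/EBP family act on many of the same genes. The secreted proteins include lipoprotein-borne serum amyloids, scavengers of free hemoglobin and heme, orosomucoids that bind lipophilic molecules, and lipocalin-2, which withholds iron from bacteria. Bulk RNA of whole liver was sequenced from mice aged 20 to 22 months on a C57BL/6J background, with 4 mice in each of 4 groups. LKO mice carried floxed Gcgr, the glucagon receptor gene, together with Albumin-Cre, which acts in hepatocytes from development onwards. CRE- mice carried the same floxed Gcgr without the Cre transgene, so floxed alleles were common to every mouse and no group had Albumin-Cre alone. The comparisons were male LKO with male CRE-, female LKO with female CRE-, the interaction of sex and genotype, and female CRE- with male CRE-.

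Between 33268424 and 56488920 reads were counted per library. Levels are given in CPM, counts scaled to a common library size with TMM factors (trimmed mean of M values), and in RPKM, CPM per kilobase of exon, where genes are compared with each other. Values in a series follow replicates 1 to 4. Gcgr was at 190.3, 193, 127 and 189.5 CPM in male CRE- mice and at 116.5, 136, 129.8 and 160.3 CPM in male LKO mice. In females it was at 162, 208, 201 and 179.9 CPM in CRE- mice and at 48.8, 132, 119 and 93.5 CPM in LKO mice. The male groups overlapped through CRE- replicate 3, and every female LKO library was below every female CRE- library. Reads from exons that Cre does not remove are part of this count, so it checks the labels only in part. Gcgr passed the test for females at log2 fold change -0.93 (SE 0.25, adjusted p = 0.0443, edgeR quasi-likelihood with Benjamini-Hochberg over all genes tested), and not in males, with -0.37 (SE 0.245, adjusted p = 0.671, edgeR and Benjamini-Hochberg as above). The female call was kept in 1 of 8 fits lacking 1 female library each. It was lost with only the female groups fitted (adjusted p = 0.132, edgeR quasi-likelihood, Benjamini-Hochberg). Upper-quartile scaling, no filter on low counts, and at least 10 counts in every library also lost it. DESeq2 and limma-voom kept it.

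Some libraries stood apart from their groups in the acute-phase genes. Female LKO replicate 4 had the highest level of all 10 genes among the 16 libraries. The 10 genes took 4.65% of its counted reads, compared with 0.621% to 2.23% in the other libraries. Female CRE- replicate 1 ranked 2 or 3 of 16 for 9 of the genes and 11 for Saa3, and the genes took 1.83% of its reads. Male CRE- replicate 3 was the lowest of the male controls for 9 of the 10 genes, the exception being Hpx. Over all genes tested, female LKO replicate 1 was the library least like the others, with a highest Pearson r of log2 CPM with any other library of 0.934. Female results for the acute-phase genes are therefore also given without female LKO replicate 4, and in part without female CRE- replicate 1, and leaving both out together was chosen after seeing the data.

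**Figure D1:**
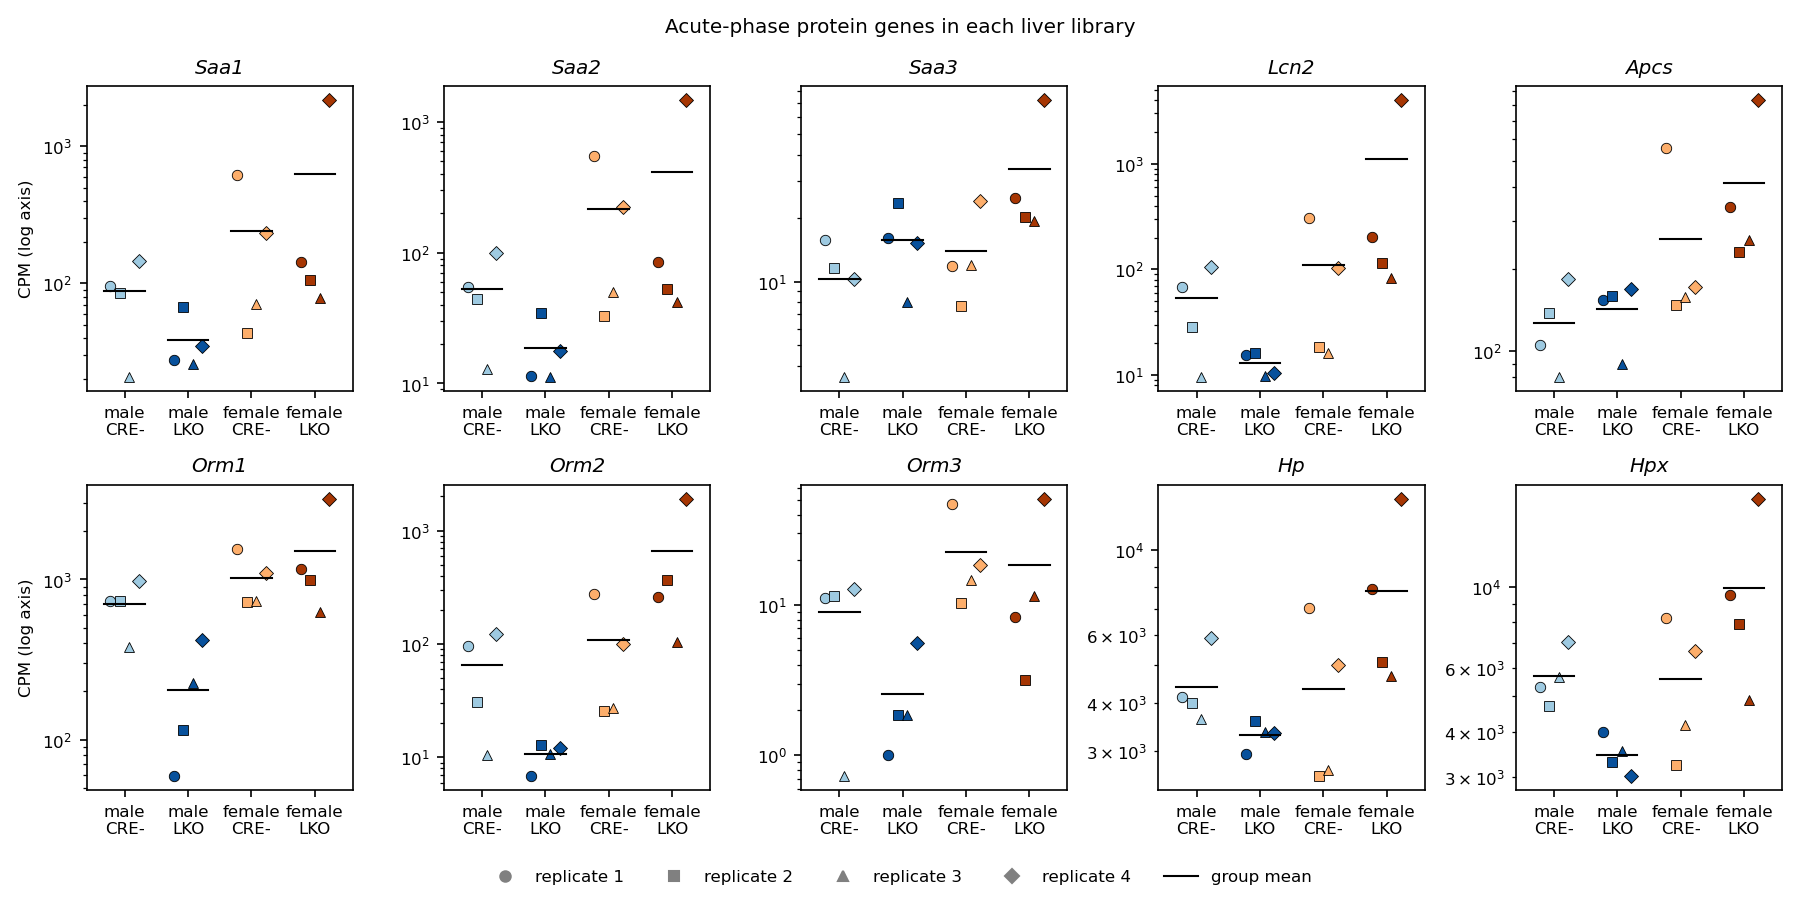
Level of each acute-phase protein gene in each liver library, in CPM on a log axis, with 1 point per mouse, the marker shape giving the replicate number and the line the group mean (n = 4). Female LKO replicate 4 is the highest of the 16 libraries in every panel, and the male LKO points of Hp and Hpx lie below all male CRE- points.

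Per length, Hpx and Hp were the most abundant of the genes, with medians of 3446 and 3019 RPKM over the 16 libraries, followed by Orm1 with 940.1 RPKM and Apcs with 186 RPKM. Saa1 followed with a median of 98.7 RPKM, and Orm2, Saa2 and Lcn2 lay close together at 59.9, 57.4 and 57.1 RPKM. Saa3 was at 29.3 RPKM and Orm3 at 4.32 RPKM. The ranges over libraries of each neighbouring pair in this order overlapped. Within libraries, Hp was above Orm1 and Saa3 above Orm3 in 16 of 16, whereas the other neighbours changed places in some libraries, with Hpx above Hp in 12, Orm2 above Saa2 in 5 and Saa2 above Lcn2 in 9. The spread itself differed widely between the genes. Lcn2 varied 421-fold between its lowest and highest library and Orm2 278-fold, whereas Hp varied 5.25-fold and Hpx 5.79-fold. On GRCm39, the annotation of the count table places Saa3, Saa1 and Saa2 on chromosome 7, at 46361422 to 46365100, 46389921 to 46392404 and 46401257 to 46403737. Orm1, Orm3 and Orm2 lie side by side on chromosome 4, starting at 63262793, 63274107 and 63280543. The remaining genes are single, with Hpx on chromosome 7, Hp on chromosome 8, Lcn2 on chromosome 2 and Apcs on chromosome 1. Saa1 and Saa2 are near-identical copies, as are the orosomucoid genes to a lesser degree, and the counting left out reads that align to several places, so the values of single copies are uncertain.

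In male LKO mice 8 of the 10 genes had a lower fitted level than in male CRE- mice and Saa3 and Apcs a higher one, but none passed the test. By the edgeR quasi-likelihood test (Benjamini-Hochberg) the count was 0 of 10, beside 0.454% of all genes tested (76 of 16742). At an unadjusted p under 0.05 there were 3 of the 10, Orm1, Orm2 and Orm3, beside 9.53% of all genes. With only the male groups fitted there were 7 of the 10 (1529 of 15595 genes in all), and none passed, beside 0.686% of all genes. DESeq2 called 1, Orm1, beside 2.02% of all genes, and limma-voom with sample quality weights called 0, beside 0.884%. The median log2 fold change of the 10 was -1.33, compared with -0.0078 over all genes tested, and with the paralogs summed it was -0.733 over 7 values. Hp and Hpx were the 2 genes whose male groups did not overlap, a separation seen in 6.49% of all genes. These are bulk samples, in which fewer cells of a type and less RNA per cell cannot be told apart.

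In female LKO mice the fitted level of 9 of the 10 genes was higher than in female CRE- mice, the exception being Orm3, and again none passed. The count by the edgeR quasi-likelihood test (Benjamini-Hochberg) was 0 of 10, beside 4.24% of all genes tested (710 of 16742). There were 5 at an unadjusted p under 0.05, Saa3, Hp, Hpx, Orm2 and Lcn2, beside 21.4% of all genes. DESeq2 and limma-voom also called 0, beside 10.8% and 11.8% of all genes. The female groups of all 10 genes overlapped, where 11.6% of all genes were separated. The median log2 fold change of the 10 was 0.90, compared with 0.035 over all genes, and this median depended on the high libraries. Without female LKO replicate 4 the median was 0.16, with 6 genes higher and 4 lower. In that fit 1 gene, Saa2, had an unadjusted p under 0.05 (3494 of 17081 genes in all), and its level was lower. Without female CRE- replicate 1 the median was 1.30, with all 10 higher. Of these, 7 had an unadjusted p under 0.05 (3536 of 17084 genes in all). With both left out the median was 0.61, with 7 higher and 3 lower. Here 4 had an unadjusted p under 0.05 (3377 of 17009 genes in all). No gene of the 10 passed in any of these fits, where 2.37%, 2.25% and 1.18% of all genes did.

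The genotype difference in females minus that in males was positive for all 10 genes, with a median of 1.94 compared with 0.035 over all genes tested. By the edgeR quasi-likelihood test of the interaction (Benjamini-Hochberg), 0 of 10 passed, beside 0% of all genes (0 of 16742). At an unadjusted p under 0.05 there were 5 of the 10, Hp, Hpx, Orm1, Orm2 and Lcn2, beside 16% of all genes (2672). DESeq2 called 371 genes, Orm2 among them as the single member of the list, and limma-voom called 29 genes and no member. Without female LKO replicate 4, 8 of the 10 were positive with a median of 0.575. In that fit 3 had an unadjusted p under 0.05 (2726 of 17081 genes in all). Without female CRE- replicate 1 all 10 were positive with a median of 2.38. Of these, 8 had an unadjusted p under 0.05 (2821 of 17084 genes in all). With both left out, 9 were positive with a median of 1.14. Here 5 had an unadjusted p under 0.05 (2847 of 17009 genes in all). All 12 neutrophil markers tested, given below, were positive in the interaction too. The interaction uses the same libraries as the comparison within each sex.

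**Figure D2:**
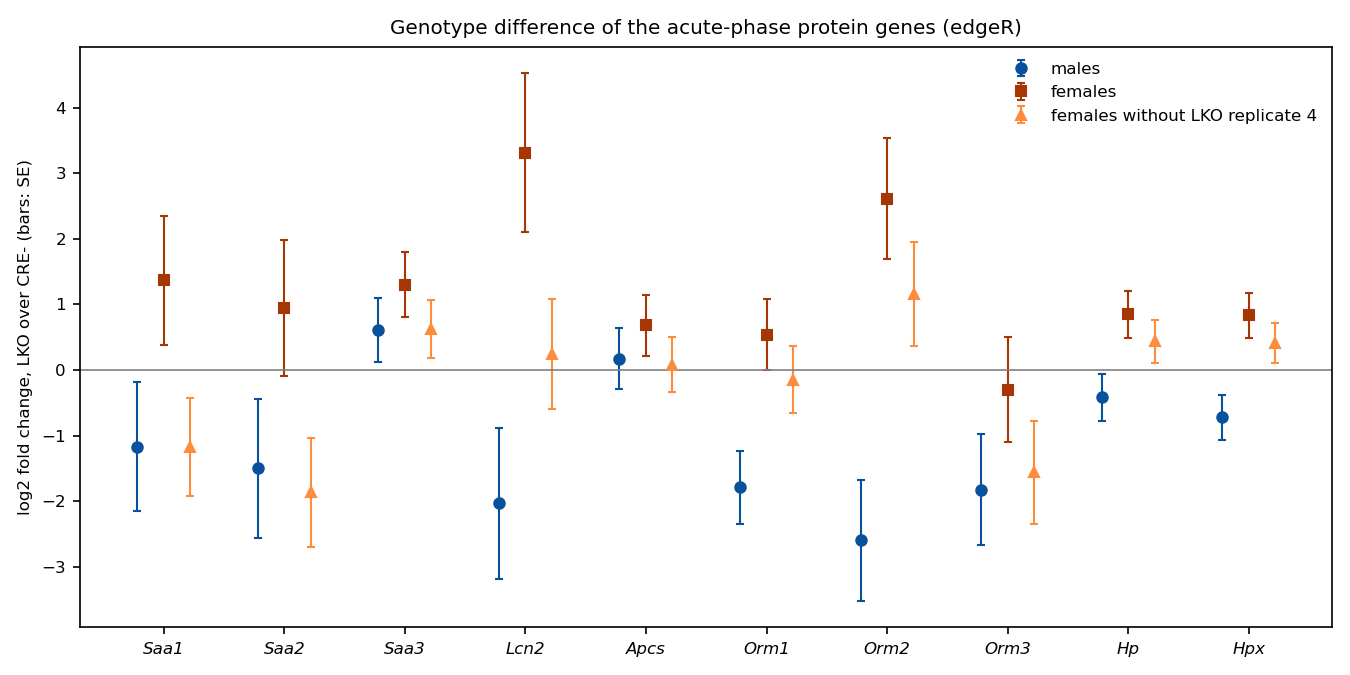
Fitted log2 fold change of LKO over CRE- mice for each gene, with bars of 1 SE, in males, in females and in females without LKO replicate 4. Without that library the female values of Saa1, Saa2 and Orm1 move from above 0 to below 0 and that of Lcn2 falls to 0.24, and no value shown passed an adjusted p of 0.05.

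Serum amyloid A proteins ride on high-density lipoprotein and are among the most inducible products of the liver. Saa1 was at 95.99, 85.75, 20.7 and 147 CPM in male CRE- mice and at 27.6, 67.1, 25.7 and 34.9 CPM in male LKO mice. In females it was at 621, 43.8, 70.3 and 234 CPM in CRE- mice and at 143, 105, 77.7 and 2180 CPM in LKO mice. Male CRE- replicate 3 was below all male LKO libraries, so the male groups overlapped. Female LKO replicate 4 was 20.8 times the median of the other female LKO libraries, which lay inside the range of the female controls. The log2 fold change was -1.17 in males (SE 0.98, adjusted p = 0.743) and 1.37 in females (SE 0.98, adjusted p = 0.459) (edgeR quasi-likelihood, Benjamini-Hochberg). Over 16 alternative fits the male value ran from -1.585 to -0.6166. Without female LKO replicate 4 the female value was -1.17, and with female CRE- replicate 1 also left out it was -0.09587. Saa2 followed Saa1 closely, with a Pearson r of log2 CPM of 0.99 over the 16 libraries. Its range was 12.8 to 99.2 CPM in male CRE- mice, 11.2 to 34.4 CPM in male LKO mice, 32.6 to 554 CPM in female CRE- mice and 41.97 to 1478 CPM in female LKO mice. The fit gave a log2 fold change of -1.5 in males and 0.95 in females, and -1.86 in females without LKO replicate 4, where its adjusted p was 0.22 (edgeR quasi-likelihood, Benjamini-Hochberg). The male value of Saa2 ran from -1.992 to -0.8614 over 16 alternative fits. With the counts of Saa1 and Saa2 summed, the log2 fold change was -1.31 in males (SE 1.02) and 1.20 in females (SE 1.01). The female sum was -1.45 without LKO replicate 4 and -0.37 with both high libraries left out, fits chosen after seeing the data.

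Saa3, which in mice is also made outside hepatocytes, in macrophages and fat among other sites, had a higher fitted level in male LKO mice, unlike Saa1 and Saa2. It was at 15.8, 11.6, 3.535 and 10.3 CPM in male CRE- mice and at 16.1, 23.6, 8.05 and 15.2 CPM in male LKO mice. Female CRE- mice had 11.8, 7.72, 12.04 and 24.1 CPM and female LKO mice 24.98, 20.2, 19.4 and 72.6 CPM. Male LKO replicates 1 and 2 were above all male controls and the other LKO libraries lay within the control range. In females CRE- replicates 1 to 3 were below all LKO libraries, and CRE- replicate 4 was above LKO replicates 2 and 3. The log2 fold change was 0.61 in males (SE 0.49, adjusted p = 0.729) and 1.302 in females (SE 0.50, adjusted p = 0.136) (edgeR quasi-likelihood, Benjamini-Hochberg). The male value ran from 0.3056 to 0.8873 with single male libraries left out, and the female value was 0.63 without LKO replicate 4. The sexes differed by 0.69 (SE 0.69), and by 0.038 without that library.

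Lcn2 encodes lipocalin-2, which binds bacterial siderophores and is made by stimulated hepatocytes and stored in neutrophil granules. Its level was 68.8, 28.55, 9.565 and 106 CPM in male CRE- mice and 15.5, 16.4, 9.71 and 10.4 CPM in male LKO mice. Female CRE- mice had 307, 18.4, 16.2 and 104 CPM and female LKO mice 202, 114, 83.5 and 4024 CPM. All 4 male LKO libraries were low, and CRE- replicate 3 was lower still. Among females, LKO replicate 4 was 35.2 times the median of the other LKO libraries and CRE- replicate 1 was 16.7 times that of the other controls. The log2 fold change was -2.03 in males (SE 1.15, adjusted p = 0.605) and 3.31 in females (SE 1.21, adjusted p = 0.118) (edgeR quasi-likelihood, Benjamini-Hochberg). The male value ran from -2.404 to -1.052 over 17 alternative fits. The female value was 0.24 without LKO replicate 4 and 1.53 with CRE- replicate 1 also left out. The difference between the sexes was 5.345 (SE 1.66, adjusted p = 0.201, edgeR quasi-likelihood, Benjamini-Hochberg) and 2.296 without LKO replicate 4.

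Apcs encodes serum amyloid P, the pentraxin that serves as a main acute-phase reactant in mice. Male CRE- mice had 105, 137.5, 80.2 and 184 CPM and male LKO mice 154, 159, 89.96 and 168.5 CPM. In females the levels were 557, 148, 158 and 172.5 CPM in CRE- mice and 337, 230.4, 256 and 837.5 CPM in LKO mice. The male ranges lay on top of each other, and every female LKO library was above all female controls except replicate 1. The log2 fold change was 0.17 in males (SE 0.46, adjusted p = 0.93) and 0.68 in females (SE 0.46, adjusted p = 0.43) (edgeR quasi-likelihood, Benjamini-Hochberg). The male value was -0.01006 without CRE- replicate 3. In females it was 0.08 without LKO replicate 4, 1.38 without CRE- replicate 1 and 0.78 without both.

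Orosomucoids, also called alpha-1-acid glycoproteins, bind lipophilic compounds and modulate immune cells. Orm1, the most abundant of them, was at 739, 729, 376 and 976 CPM in male CRE- mice and at 59.1, 115, 225 and 419 CPM in male LKO mice. Its female levels were 1552, 723, 736 and 1098 CPM in CRE- mice and 1167, 999, 629 and 3186 CPM in LKO mice. Male LKO replicates 1 to 3 were below all controls, and replicate 4 lay between CRE- replicate 3 and the others. Orm1 had a fitted log2 difference of -1.79 in males (SE 0.56, adjusted p = 0.245, edgeR quasi-likelihood, Benjamini-Hochberg), and DESeq2 gave -1.797 with an adjusted p of 0.0331 (Wald test, Benjamini-Hochberg). The female value was 0.54 (SE 0.54) and -0.15 without LKO replicate 4.

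Orm2 was at 95.3, 30.8, 10.6 and 122 CPM in male CRE- mice and at 6.84, 12.9, 10.75 and 12.2 CPM in male LKO mice. Female CRE- mice had 278, 25.4, 27.5 and 101 CPM and female LKO mice 258, 369, 105 and 1903 CPM. The male LKO libraries were all low, and CRE- replicate 3 was as low as they were. All 4 female LKO libraries were above CRE- replicates 2, 3 and 4, while CRE- replicate 1 lay among them. The log2 fold change was -2.597 in males (SE 0.92, adjusted p = 0.333) and 2.61 in females (SE 0.92, adjusted p = 0.108) (edgeR quasi-likelihood, Benjamini-Hochberg). Without LKO replicate 4 the female value was 1.16, and without CRE- replicate 1 as well it was 2.25. The sexes differed by 5.21 (SE 1.30, adjusted p = 0.148, edgeR quasi-likelihood, Benjamini-Hochberg), the smallest interaction p of the 10 genes, and DESeq2 gave 5.23 with an adjusted p of 0.015 (Wald test, Benjamini-Hochberg). The interaction was 3.78 without female LKO replicate 4.

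Orm3, the least abundant, ranged over 0.728 to 12.9 CPM in male CRE- mice, 1.003 to 5.56 CPM in male LKO mice, 10.4 to 47.3 CPM in female CRE- mice and 3.165 to 50.8 CPM in female LKO mice. The groups overlapped in both sexes, and the log2 fold change was -1.82 in males (SE 0.85) and -0.2991 in females (SE 0.805), and the female value was -1.56 without LKO replicate 4 and 0.35 without CRE- replicate 1. With the counts of the 3 orosomucoid genes summed, the log2 fold change was -1.86 in males (SE 0.61, adjusted p = 0.276) and 0.92 in females (SE 0.59, adjusted p = 0.405) (edgeR quasi-likelihood, Benjamini-Hochberg). In this sum the sexes differed by 2.77 (SE 0.85, adjusted p = 0.2, edgeR quasi-likelihood, Benjamini-Hochberg). Without female LKO replicate 4, a fit of the sum chosen after seeing the data, the female value was 0.023 and the difference between the sexes 1.88.

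Haptoglobin (Hp) binds free hemoglobin and hemopexin (Hpx) binds free heme, and both genes are expressed strongly in unstimulated liver. Hp was at 4133, 3987, 3628 and 5876 CPM in male CRE- mice and at 2938, 3575, 3355 and 3333 CPM in male LKO mice. In female CRE- mice it was at 7064, 2578, 2673 and 5025 CPM and in female LKO mice at 7887, 5105, 4704 and 13540 CPM. Every male LKO library was below every male control, by a narrow margin. The log2 fold change of Hp was -0.42 in males (SE 0.35, adjusted p = 0.747) and 0.85 in females (SE 0.36, adjusted p = 0.174) (edgeR quasi-likelihood, Benjamini-Hochberg). The male value of Hp ran from -0.5169 to -0.2452 with single male libraries left out. In females it was 0.44 without LKO replicate 4 and 0.78 with CRE- replicate 1 also left out. Hpx was at 5312, 4693, 5656 and 7054 CPM in male CRE- mice and at 3984, 3291, 3533 and 3016 CPM in male LKO mice. Its female levels were 8225, 3234, 4175 and 6645 CPM in CRE- mice and 9527, 7929, 4887 and 17470 CPM in LKO mice. Here too the male groups were apart, with the highest LKO library below the lowest control. Fitted log2 fold changes were -0.72 in males (SE 0.34, adjusted p = 0.538) and 0.84 in females (SE 0.34, adjusted p = 0.165) (edgeR quasi-likelihood, Benjamini-Hochberg). The female value of Hpx was 0.41 without LKO replicate 4 and 0.67 with CRE- replicate 1 also left out. The interaction was 1.27 for Hp (SE 0.50) and 1.55 for Hpx (SE 0.49), and 0.87 and 1.14 without female LKO replicate 4.

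Between the controls, the fitted level of 8 of the 10 genes was higher in female CRE- than in male CRE- mice, and Hp and Hpx were slightly lower. None passed the edgeR quasi-likelihood test (Benjamini-Hochberg), beside 0.92% of all genes tested (154 of 16742). Apcs was the 1 gene at an unadjusted p under 0.05, log2 fold change 1.03 (SE 0.47, adjusted p = 0.372, edgeR quasi-likelihood, Benjamini-Hochberg), where 12.7% of all genes had such a p. Without female CRE- replicate 1, its high library, the value was 0.3345 and none of the 10 had an unadjusted p under 0.05. DESeq2 and limma-voom called 0 of the 10, beside 3.04% and 1.97% of all genes. The median log2 fold change was 0.88 with all controls and 0.31 without female CRE- replicate 1, compared with -0.007 over all genes with all controls. It was 0.54 without male CRE- replicate 3, and -0.0362 with limma-voom, where 5 genes were higher and 5 lower. Among the listed genes, and chosen after the values were seen, Serpina3m (0.98) and Krt19 (1.66) rose and Cidec (-4.62) fell in female against male controls on the log2 scale. Cidec did not stand for its list of adipocyte markers, of which 3 of 5, Adipoq, Plin1 and Lep, had higher fitted levels in female controls without passing. In male controls Plin1 and Lep were at 0 CPM and Adipoq reached at most 0.178 CPM, so the list median of 4.44 is not an exact size. Cfd was lower in female controls, as Cidec was. The summed level of the list was 31.2 to 101 CPM in male and 3.64 to 8.20 CPM in female controls. These controls are the ones used in the comparisons with LKO mice.

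The other positive acute-phase genes, 22 complement, fibrinogen, serpin and other genes, were examined beside the 10. None of the 22 passed in males, with 1 at an unadjusted p under 0.05, beside 9.53% of all genes, and a median of -0.15 on the log2 scale. Among females 2 rose and 1 fell, beside 4.24% of all genes, with a median of 0.063. There 7 had an unadjusted p under 0.05, beside 21.4% of all genes. The groups did not overlap for 6 of the 22 in females and 2 in males, beside 11.6% and 6.49% of all genes. The genes that rose were Il1rn, which encodes the interleukin-1 receptor antagonist, and Cd14, a co-receptor for bacterial lipopolysaccharide. Il1rn was at 6.98, 3.54, 3.59 and 9.09 CPM in female CRE- mice and at 9.79, 13.8, 14.8 and 45.8 CPM in female LKO mice, so that all LKO libraries were above all controls. The fitted log2 change was 1.86 (SE 0.46, adjusted p = 0.0352, edgeR quasi-likelihood, Benjamini-Hochberg). Cd14 was at 6.52, 5.21, 3.93 and 9.09 CPM in female CRE- mice and at 41.6, 9.97, 13.75 and 93.4 CPM in female LKO mice, log2 fold change 2.68 (SE 0.69, adjusted p = 0.0419, edgeR quasi-likelihood, Benjamini-Hochberg). Serpina1b, an alpha-1-antitrypsin gene with near-identical neighbours, fell from 5464, 6076, 6099 and 8036 CPM to 2107, 4056, 3454 and 3021 CPM, log2 fold change -1.02 (SE 0.24, adjusted p = 0.0297, edgeR quasi-likelihood, Benjamini-Hochberg). With each female library left out in turn, Il1rn and Serpina1b passed in 3 of 8 fits and Cd14 in 2 of 8. With only the female groups fitted none of the 3 passed, at 0.103 for Il1rn, 0.0792 for Cd14 and 0.0998 for Serpina1b (adjusted p, edgeR quasi-likelihood, Benjamini-Hochberg). DESeq2 and limma-voom called all 3. Without LKO replicate 4 the log2 fold change was 1.145 for Il1rn, 1.805 for Cd14 and -0.9959 for Serpina1b, and none of the 3 passed. C3, the central complement component and the most abundant gene of this list by counts, was at 9343 to 15240 CPM in female CRE- mice and 10410 to 18990 CPM in female LKO mice.

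Of the 8 negative acute-phase genes, whose plasma proteins decline in inflammation, none passed in either sex. At an unadjusted p under 0.05 there were 2 in males and 3 in females, beside 9.53% and 21.4% of all genes, and the median log2 fold change was 0.15 in males and -0.49 in females. Albumin (Alb), the most abundant of them, was at 51050, 74310, 89840 and 69950 CPM in male CRE- mice and at 48280, 53900, 69080 and 55630 CPM in male LKO mice. In females it was at 92380, 90050, 94330 and 105500 CPM in CRE- mice and at 41660, 71940, 69410 and 53260 CPM in LKO mice. All female LKO libraries were below all female controls, a separation seen in 11.6% of all genes, and the male groups overlapped. The female log2 fold change was -0.69 (SE 0.24, adjusted p = 0.103, edgeR quasi-likelihood, Benjamini-Hochberg).

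The cytokines that induce these genes were at low levels in whole liver. Of 8 genes on the list 5 were tested and none passed in either sex, with 0 at an unadjusted p under 0.05 in males and 2 in females, beside 9.53% and 21.4% of all genes. Il6 was at 0 in 7 libraries, where a count of 0 allows up to 0.081 CPM, and its highest value was 1.18 CPM in female LKO replicate 1. Il1b was at 5.34, 3.42, 2.97 and 3.31 CPM in female CRE- mice and at 10.9, 6.11, 9.51 and 8.85 CPM in female LKO mice. These LKO values were all above the controls, a separation seen in 11.6% of all genes. The log2 fold change was 1.23 (SE 0.46, adjusted p = 0.127, edgeR quasi-likelihood, Benjamini-Hochberg). Tnf ranged over 0.407 to 1.07 CPM in female CRE- mice and 0.748 to 2.79 CPM in female LKO mice. Male values of Il1b were 1.35 to 8.81 CPM in CRE- mice and 2.835 to 7.303 CPM in LKO mice, and those of Tnf were 0.156 to 1.89 CPM and 0.297 to 1.29 CPM. The summed level of the 8 cytokine genes was highest in female LKO replicate 1, at 49.1 CPM, of which Il1a made up 33.4 CPM. The sum was 16.1 CPM in female LKO replicate 4, the library with the most acute-phase RNA. Any link between cytokine and acute-phase RNA was not tested.

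Of 8 cytokine receptor genes none passed in males, with 0 at an unadjusted p under 0.05, beside 0.454% and 9.53% of all genes. In females 3 passed and 5 had an unadjusted p under 0.05, beside 4.24% and 21.4% of all genes. Il1r1, the signalling receptor for interleukin-1, rose from 42.7, 15.1, 17.3 and 9.19 CPM to 79.1, 47.03, 46.8 and 101 CPM in females, log2 fold change 1.703 (SE 0.38, adjusted p = 0.025, edgeR quasi-likelihood, Benjamini-Hochberg). Its accessory chain Il1rap fell from 81.95, 93.5, 109.9 and 78.3 CPM to 37.1, 47.1, 49.9 and 33.05 CPM, log2 fold change -1.12 (SE 0.19, adjusted p = 0.00678, edgeR quasi-likelihood, Benjamini-Hochberg). Lifr, the receptor for leukemia inhibitory factor, fell from 154, 186, 171 and 264 CPM to 80.5, 121.5, 92.9 and 84.8 CPM, log2 fold change -1.03 (SE 0.22, adjusted p = 0.0213, edgeR quasi-likelihood, Benjamini-Hochberg). In each of these genes the female groups were fully separated, as they were in 11.6% of all genes. Il1rap passed in 8 of 8 fits lacking 1 female library each, Lifr in 5 and Il1r1 in 3. With only the female groups fitted Il1rap passed (adjusted p = 0.0388), and Lifr (0.0688) and Il1r1 (0.0969) did not (edgeR quasi-likelihood, Benjamini-Hochberg). The male log2 fold changes were -0.062 for Il1r1, 0.066 for Il1rap and -0.298 for Lifr, and the interaction passed for none, with the smallest adjusted p at 0.135 for Il1rap (edgeR quasi-likelihood, Benjamini-Hochberg).

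Of 14 kinases, inhibitors and transcription factors of the response none passed in either sex, with 2 at an unadjusted p under 0.05 in males and 4 in females, beside 9.53% and 21.4% of all genes. Hnf4a, a hepatocyte factor and the most abundant of them by counts, was at 538.5 to 621 CPM in female CRE- mice and 403 to 586 CPM in female LKO mice. Of 8 receptors and clearance genes for the proteins, Slc22a17, the lipocalin-2 receptor, rose in females from 1.197, 1.13, 1.245 and 1.04 CPM to 4.43, 2.54, 4.19 and 1.88 CPM, log2 fold change 1.498 (SE 0.35, adjusted p = 0.0298, edgeR quasi-likelihood, Benjamini-Hochberg). It passed in 2 of 8 fits lacking 1 female library each, and with DESeq2 and limma-voom. With only the female groups fitted it did not pass (adjusted p = 0.0713, edgeR quasi-likelihood, Benjamini-Hochberg). At an unadjusted p under 0.05 the list had 4 genes in females, beside 21.4% of all genes. For males the list gave 0, with 3 at an unadjusted p under 0.05, beside 9.53% of all genes. Over these 6 lists together, 7 of 65 genes tested passed in females and 0 in males, beside 4.24% and 0.454% of all genes. The female count was 3 without LKO replicate 4, beside 2.37% of all genes in that fit, and 4 without both high libraries, beside 1.18%.

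The summed level of 13 neutrophil markers was 117, 24.8, 23.03 and 235 CPM in male CRE- mice and 31.4, 20.5, 17.2 and 15.5 CPM in male LKO mice. In females it was 45.25, 24.9, 19.3 and 56.9 CPM in CRE- mice and 173, 52.1, 99.3 and 746 CPM in LKO mice. Female LKO replicate 4 was the highest and male LKO replicate 4 the lowest, and all but 1 of the female LKO libraries were above all female controls. The male controls at 24.8 and 23.03 CPM lay within the male LKO range, and those at 117 and 235 CPM lay above it. Of the 12 markers tested, 5 rose in females, Ltf, Ngp, Retnlg, Mmp8 and Mpo, and 11 had an unadjusted p under 0.05, beside 4.24% and 21.4% of all genes. For males 0 passed, 9 reached an unadjusted p under 0.05, beside 9.53% of all genes, and all 12 had a lower fitted level. The median log2 fold change was 3.54 in females and -2.23 in males. In the interaction all 12 were positive with a median of 5.81, and none passed. Of these, 11 had an unadjusted p under 0.05, beside 16% of all genes. In female against male controls 1 of the 12 was positive, with a median of -1.9, and none passed. There 6 had an unadjusted p under 0.05, beside 12.7% of all genes. The interaction uses these same controls. Ltf (lactoferrin) had a female log2 fold change of 4.88 (SE 1.22, adjusted p = 0.0369, edgeR quasi-likelihood, Benjamini-Hochberg). For Mpo (myeloperoxidase) it was 5.23 (SE 1.27, adjusted p = 0.0332, edgeR quasi-likelihood, Benjamini-Hochberg). Each of the 5 genes passed in at most 3 of 8 fits lacking 1 female library each. With only the female groups fitted none of the 5 passed (adjusted p 0.0634 to 0.0851, edgeR quasi-likelihood, Benjamini-Hochberg), and with limma-voom Retnlg alone did. Without LKO replicate 4 the log2 fold change was 3.58 for Ltf and 4.198 for Mpo, and none of the 5 passed. The most abundant marker by counts, S100a9, was at 14.9, 7.58, 7.09 and 8.18 CPM in female CRE- mice and at 39.85, 17.6, 24.9 and 258 CPM in female LKO mice. Ly6g was at 0 in 9 libraries, including all male LKO libraries, and reached 1.91 CPM in female LKO replicate 4. The part of neutrophil RNA in the levels of Lcn2 and the other acute-phase genes was not tested.

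Macrophage markers followed another order. Their summed level over 12 genes was 1306, 654.5, 349 and 1947 CPM in male CRE- mice and 1732, 928, 1011 and 914 CPM in male LKO mice. Female sums were 1096, 795, 889 and 1712 CPM in CRE- mice and 4542, 1439, 3155 and 2015 CPM in LKO mice. Female LKO replicate 1 was the highest, and replicate 4, the library with the most acute-phase RNA, ranked below replicates 1 and 3. Adgre1 rose in females, from 31.2, 28.4, 28.7 and 34.15 CPM to 334, 45.2, 99.3 and 64.85 CPM, log2 fold change 2.15 (SE 0.57, adjusted p = 0.0451, edgeR quasi-likelihood, Benjamini-Hochberg), and passed in 2 of 8 fits lacking 1 female library each. Without LKO replicate 1 its log2 fold change was 1.21 (adjusted p = 0.189, edgeR quasi-likelihood, Benjamini-Hochberg). With only the female groups fitted Adgre1 did not pass (adjusted p = 0.0857, edgeR quasi-likelihood, Benjamini-Hochberg). In the main fit it was the 1 of 12 markers to pass in females, where 9 had an unadjusted p under 0.05, beside 4.24% and 21.4% of all genes. None passed in males. Cd5l was the most abundant marker by counts, at 144 to 348 CPM in female CRE- mice and 248 to 991 CPM in female LKO mice. Its part, and that of the macrophages, in the levels of Saa3 was not tested.

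**Figure D3:**
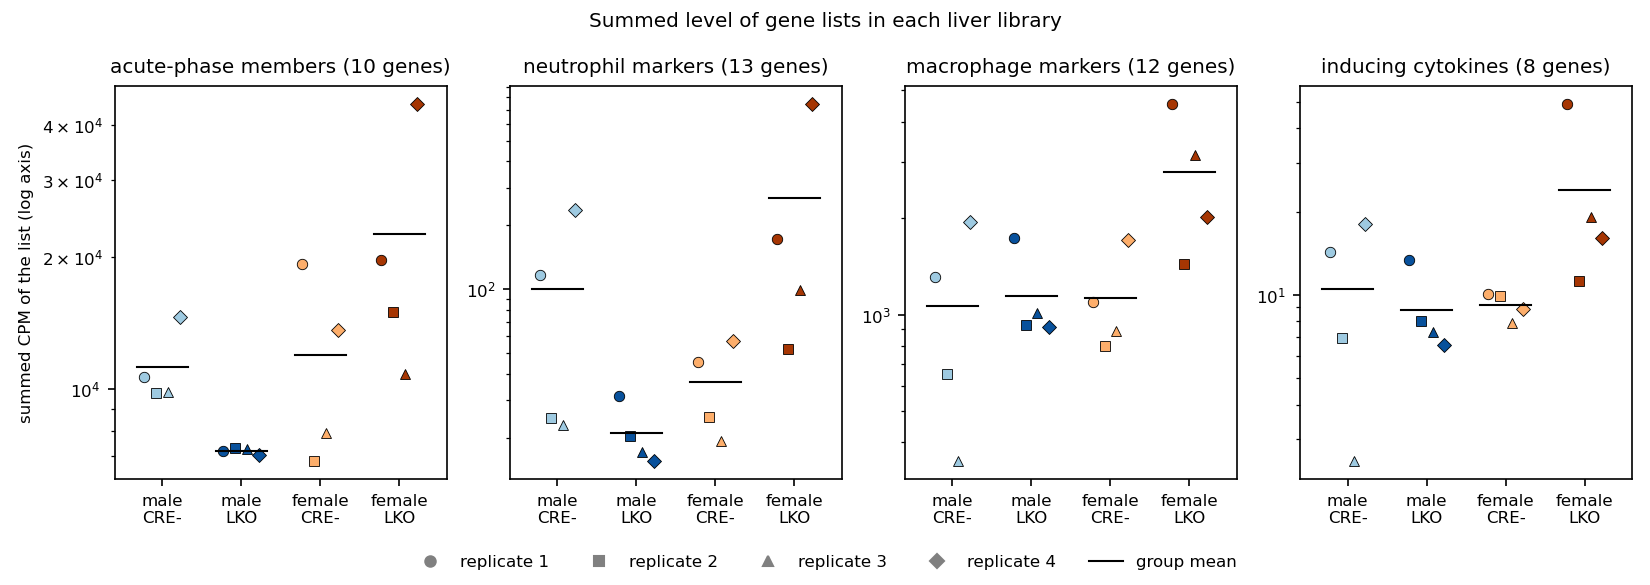
Summed CPM, on a log axis, of the acute-phase protein genes and of lists of neutrophil markers, macrophage markers and inducing cytokines, with 1 point per mouse, the marker shape giving the replicate number and the line the group mean (n = 4). Female LKO replicate 4 is highest for the acute-phase genes and neutrophil markers, and female LKO replicate 1 is highest for the macrophage markers and cytokines.

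Erythroid markers, which bear on the hemoglobin and heme scavengers, were low in male LKO livers. Their summed level over 5 genes was 767, 626, 558 and 1039 CPM in male CRE- mice and 196, 393, 306 and 491 CPM in male LKO mice, with no overlap. Female sums were 542, 482, 389 and 786 CPM in CRE- mice and 406, 869, 304 and 1650 CPM in LKO mice, with overlap. None of the 5 passed in either sex, with 4 at an unadjusted p under 0.05 in males, beside 9.53% of all genes, and 0 in females, and Hbb-bs, the most abundant, had a male log2 fold change of -1.08 (SE 0.47). The part of blood left in the tissue in these values was not tested. Of 7 endothelial markers Cdh5 and Vwf rose in females, beside 4.24% of all genes. Their log2 fold changes were 0.79 (adjusted p = 0.0249) and 1.15 (adjusted p = 0.0358) (edgeR quasi-likelihood, Benjamini-Hochberg). They passed in 4 and 2 of 8 fits lacking 1 female library each. With only the female groups fitted neither passed (adjusted p 0.0766 and 0.1, edgeR quasi-likelihood, Benjamini-Hochberg), and with limma-voom Cdh5 alone did. Clec4g and Kdr had lower fitted levels in female LKO mice, and none of the 7, led by Stab2, passed in males. No marker of T and NK cells (8 genes, led by Nkg7), B and plasma cells (7, Ighm), stellate cells and fibroblasts (8, Dcn), cholangiocytes (6, Spp1) or adipocytes (5, Cidec) passed in either sex. The 10 hepatocyte markers had summed levels of 145000, 138400, 146000 and 169400 CPM in female CRE- mice and 83130, 122000, 109900 and 123400 CPM in female LKO mice, led by Alb, and none passed in either sex. Alb, Ttr, Apoa1, Trf and Serpina1a were also in the acute-phase lists, Hnf4a in the list of transcription factors, and Cd163, a macrophage marker, in the list of receptors.

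The 10 genes varied together over the libraries. Over the 45 pairs of genes, the Pearson r of log2 CPM ranged from 0.324 to 0.99 with a median of 0.813 over 16 libraries. Without the 2 high female libraries the median was 0.655 over 14 libraries, and the lowest was 0.0765. The libraries share groups, so these values are descriptions. The non-member gene most like Saa1, Saa2, Orm2 and Lcn2 was Slc13a3, a dicarboxylate transporter, with r of 0.906, 0.902, 0.916 and 0.914 over 16 libraries, and 0.837, 0.837, 0.85 and 0.823 without the 2 high libraries. Among the genes named here, it was then no longer the most alike for Saa2, Orm2 and Lcn2, as Serpina10 was at 0.895 for Saa2, Fgl1 at 0.863 for Orm2 and Isyna1 at 0.848 for Lcn2. Ppp1r36dn and Lrg1 came next for Saa1, and Ppp1r36dn and Serpina10 for Saa2. For Orm2 the following genes were Fgl1 and Prtn3, and for Lcn2 they were Ddx39a and Isyna1. Saa3 was most like Ddx39a (r = 0.862), Kif26b and Isyna1. Hp was most like Serpina3n (r = 0.902), itself an acute-phase gene, Prtn3, which encodes a neutrophil protease, and Isyna1, and without the 2 high libraries Prtn3 (0.856) was ahead of Serpina3n. Hpx was most like Mlkl (r = 0.887), Krt18 and Mcl1. Orm1 was most like Qsox1, with r = 0.942 over 16 libraries and 0.922 without the 2 high ones, and then Slc13a3 and Atp8b5. Orm3 was most like Gm40124 (r = 0.9), Rhbg and H3c15. Apcs was most like Lbp (r = 0.912), which encodes lipopolysaccharide-binding protein, Serpina3n and Ddx39a, and without the 2 high libraries Ddx39a (0.902) was ahead of Lbp (0.809).

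The promoters of Saa1, Saa2 and Lcn2 were set side by side, as 300 bases around the start of each gene. These genes and Hp were the ones planned for display in case none of the 10 passed the test. The RefSeq table of promoters on GRCm38.p6 matched 8 of the 10 genes, and Hp and Orm1 were not matched. Capitals mark matches to the C/EBP core letters TTNNGNAA on either strand.
Saa1 (chr7:46742931-46743230, minus strand): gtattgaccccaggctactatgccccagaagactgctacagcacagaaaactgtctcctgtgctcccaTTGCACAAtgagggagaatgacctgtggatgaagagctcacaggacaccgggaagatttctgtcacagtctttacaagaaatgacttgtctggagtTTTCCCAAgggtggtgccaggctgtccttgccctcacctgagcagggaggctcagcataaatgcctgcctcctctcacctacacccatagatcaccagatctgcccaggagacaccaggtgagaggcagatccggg
Saa2 (chr7:46751583-46751882, plus strand): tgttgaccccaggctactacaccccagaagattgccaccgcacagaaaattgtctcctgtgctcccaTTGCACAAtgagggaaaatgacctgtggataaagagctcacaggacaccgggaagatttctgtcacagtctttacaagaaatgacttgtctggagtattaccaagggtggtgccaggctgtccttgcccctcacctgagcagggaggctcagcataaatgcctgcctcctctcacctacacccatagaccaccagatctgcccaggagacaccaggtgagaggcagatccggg
Lcn2 (chr2:32387690-32387989, minus strand): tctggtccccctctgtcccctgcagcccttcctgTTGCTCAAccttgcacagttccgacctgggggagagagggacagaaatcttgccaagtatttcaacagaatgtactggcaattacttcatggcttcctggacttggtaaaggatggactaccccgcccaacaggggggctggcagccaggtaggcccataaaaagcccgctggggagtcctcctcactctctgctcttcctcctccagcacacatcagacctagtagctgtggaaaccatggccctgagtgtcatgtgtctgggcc
Aligned end to end, the promoters of Saa1 and Saa2 were identical in 287 of 301 columns (95.3%), with 12 differences and 2 gaps. Saa1 had matches at bases 69 to 76 and 165 to 172, counted from 1 at the 5′ end, Saa2 had a match at bases 68 to 75, and Lcn2 at bases 35 to 42. The first match of Saa1 and that of Saa2 were the same 8 letters, and Saa2 held no second match. Of the 8 promoters, 7 held such a match, compared with 40.7% of 32851 promoters of the same length. Saa1 and Saa2, and also Orm2 and Orm3, are related copies with a match at nearly the same bases. The 8 promoters are therefore not independent of each other. The STAT letters TTCNNNGAA were found in 1 of the 8, that of Apcs, and in 8.3% of all promoters. The letters GGGNNTTTC, the start of a common NF-kB site, and TGACGTCA, the cyclic AMP response element, were in 0 of the 8, and in 4.36% and 1.79% of all promoters. Both strands were searched, and the STAT and C/EBP letters can match overlapping bases. A match describes letters in this window and not a bound site.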

How the data were processed

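Per the file headers and the authors' description, the deposited counts came from paired poly-A reads aligned to GRCm39 with STAR 2.7.1a and counted per gene on 1 strand with featureCounts (Subread 2.0.6), where each read of a pair was counted and reads with several alignments were left out. The counts were fitted here in R 4.3.3 with edgeR 4.0.16, by quasi-likelihood in 1 model of 4 groups, with TMM scaling, a filter on low counts and Benjamini-Hochberg adjustment over all genes tested, at 0.05. DESeq2 1.42.0, limma-voom (limma 3.58.1), other scalings and filters, only the groups compared, summed paralogs, a replicate block and fits without single libraries were alternatives. The 10 genes and the lists of other genes were chosen with earlier results of these data known. Genes of the lists were named where they passed the test or defined a list, and others were chosen after their values were seen. The steps were tested on simulated data. Some genes of the lists are not reported here.

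The other positive acute-phase genes were Saa4, Crp, Fga, Fgb, Fgg, Serpina3n, Serpina3m, Itih3, Itih4, Cp, C3, C4b, Cfb, Lbp, Hamp, Mt1, Mt2, Il1rn, Steap4, Cd14, Serpina1a and Serpina1b. The negative acute-phase genes were Alb, Ttr, Trf, Rbp4, Apoa1, Apoa2, Ahsg and Serpina6. The cytokines were Il6, Il1a, Il1b, Tnf, Osm, Lif, Il11 and Il22. The cytokine receptors were Il6ra, Il6st, Il1r1, Il1rap, Osmr, Lifr, Tnfrsf1a and Tnfrsf1b. The kinases, inhibitors and transcription factors were Jak1, Jak2, Tyk2, Stat3, Socs3, Cebpa, Cebpb, Cebpd, Nfkb1, Rela, Nfkbia, Nfkbiz, Nr3c1 and Hnf4a. The receptors and clearance genes were Cd163, Lrp1, Slc22a17, Lrp2, Fpr2, Scarb1, Tlr2 and Hmox1. The hepatocyte markers were Alb, Ttr, Apoa1, Apob, Trf, Serpina1a, Cps1, Ass1, Hnf4a and Cyp2e1. The neutrophil markers were S100a8, S100a9, Ltf, Ngp, Camp, Retnlg, Ly6g, Cxcr2, Mmp8, Mmp9, Csf3r, Mpo and Elane. The macrophage markers were Adgre1, Clec4f, Timd4, Vsig4, Marco, Cd5l, C1qa, C1qb, Csf1r, Cd68, Lyz2 and Cd163. The T and NK cell markers were Cd3e, Cd3d, Cd4, Cd8a, Trac, Nkg7, Klrb1c and Gzma. The B and plasma cell markers were Cd79a, Cd79b, Ms4a1, Jchain, Ighm, Igkc and Mzb1. The endothelial markers were Pecam1, Cdh5, Stab2, Lyve1, Clec4g, Kdr and Vwf. The stellate cell and fibroblast markers were Lrat, Reln, Des, Pdgfrb, Col1a1, Col3a1, Dcn and Acta2. The cholangiocyte markers were Krt7, Krt19, Epcam, Sox9, Spp1 and Cftr. The adipocyte markers were Adipoq, Plin1, Lep, Cidec and Cfd. The erythroid markers were Hba-a1, Hba-a2, Hbb-bs, Hbb-bt and Alas2.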

Additional observations from a re-analysis of the deposited data

Results flagged for a closer look

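Within each group of 4 mice, the gap between an extreme library and its neighbour was compared with the range of the group on the log2 CPM scale, and 3 of 40 groups had a gap above the critical value of the Dixon ratio for 4 values. Chance alone sets apart about 1 in 20 such groups, or 2 of 40. Orm3 in male CRE- replicate 3 was low, with a gap of 0.949 of the range. Apcs in male LKO replicate 3 was low, at 0.858, and Apcs in female CRE- replicate 1 was high, at 0.886.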

How the results depend on the processing

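In males 0 of the 10 genes were called in every fit except DESeq2, which called 1. Genes called in males numbered 76, 339 with DESeq2, 148 with limma-voom, and 26 to 49 with single libraries left out, and other acute-phase and signalling genes called numbered 0, or 1 with only the groups compared fitted. In females 0 of the 10 were called in every fit. Genes called in females numbered 710, 1816 with DESeq2, 119 with only the groups compared, 1244 with a replicate block, 1976 with limma-voom, 87 to 1310 with single libraries left out, and 201 with both high female libraries left out, an alternative chosen after seeing the data. Other acute-phase and signalling genes called in females numbered 7, 14 with DESeq2, 1 with only the groups compared, 13 with the block, 15 with limma-voom, 1 to 12 with single libraries left out, and 4 without both high libraries. The block joins mice of the same replicate number, and neither the labels nor the data establish a pairing. The replicate numbers are those of the sample titles. For some male CRE- and female LKO libraries the column names of the counts carry another number. Deviations from the group means were correlated above 0.1 in 9 of 12 pairs with the same number (-0.013 to 0.332) and in 4 of 36 with different numbers (-0.29 to 0.242), and the library most alike had the same number in 7 of 12 cases. For the interaction, DESeq2 called 1 of the 10 and the other fits 0, and genes called numbered 0, 371 with DESeq2, 12 with no filter on low counts, 29 with limma-voom, and 0 to 14 with single libraries left out. Between female and male controls, genes called numbered 154, 509 with DESeq2, 249 with only the groups compared, 78 with at least 10 counts in every library, 329 with limma-voom, and 68 to 149 with single libraries left out. Some log2 fold changes changed sign when single libraries were left out. In males that of Apcs ran from -0.01006 to 0.4094. In females Saa1 ran from -1.171 to 2.434, Saa2 from -1.86 to 2.025, Orm1 from -0.1486 to 0.8092 and Orm3 from -1.56 to 0.3481, and without both high libraries Saa1 was at -0.09587 and Saa2 at -0.7689. In the interaction Saa2 ran from -0.3374 to 3.525 and Apcs from -0.07695 to 1.205, and Saa3 was at -0.05318 without both high libraries. Between the controls Saa3 ran from -0.004862 to 0.7136 (-0.1579 with limma-voom), Hp from -0.3615 to 0.1601, Hpx from -0.2758 to 0.1619, Orm2 from -0.3346 to 1.244 (-0.4955 with limma-voom, -0.3345 without both high libraries) and Lcn2 from -0.2047 to 1.643 (-0.6278 with limma-voom, -0.2047 without both). The sum of Saa1 and Saa2 without female LKO replicate 4, chosen after seeing the data, was -1.454 in females and -0.1477 in the interaction, and -0.3726 in females without both high libraries. The median of the 10 genes was -1.33 in males and 1.94 in the interaction, -0.772 and 1.23 with the replicate block, and -0.733 and 1.58 over the 7 values with paralogs summed. The other member values kept their sign. The cause was not tested.

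Every mouse carried floxed Gcgr and only LKO mice carried Albumin-Cre, so effects of the transgene and of receptor loss are not separated. Albumin-Cre acts from development onwards in hepatocytes, and RNA was taken from whole liver at a single age. With 4 mice per group, a p above the threshold does not show that there was no difference, and 1 or 2 libraries carried much of the female values. Counts of Saa1, Saa2 and the orosomucoid genes depend on how reads shared by near-identical copies were treated. Infection, injury and feeding were not analysed here, and the cell content of each sample was seen only through markers.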

Other observations

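Hamp, which encodes hepcidin, is in the list of 22 other positive acute-phase genes and was chosen after the values were seen. It passed in neither sex, and was lowest of the 16 libraries in female LKO replicate 4. It was at 431.7, 101, 657.1 and 3.238 CPM in female LKO mice and at 889.5, 953.8, 1125 and 1306 CPM in female CRE- mice, in the order of replicates 1 to 4. In males the groups overlapped, and the mean was higher in LKO mice. Male values were 187.5 to 835.1 CPM in CRE- mice (mean 582.3) and 435.6 to 1867 CPM in LKO mice (mean 972.9).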
